A study of Sus scrofa with 105 samples.

Results

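In female piglets with a diffuse brain injury that were given cyclosporine A (CsA), microRNAs (miRNAs) of the hippocampus, dissected with the amygdala, were set against those of the frontal lobe of the same animal. CsA is a calcineurin inhibitor and immunosuppressant. The question was which miRNAs differ in abundance between the 2 regions in this group. The comparison used the 9 CsA animals with a library from each region, 18 of the 105 libraries of the series, and the 2 libraries of an animal were matched by the animal code in the library name. A 10th CsA library, from an animal with hippocampus and amygdala only, was left out of the paired comparison.

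All animals were female piglets (Sus scrofa), and all tissue was fixed in formalin and embedded in paraffin. The CsA animals had been injured and received 20 mg/kg of CsA per day intravenously, with a loading dose 6 hours after injury and an infusion of 24 hours, and they survived 30 hours. The series also holds injured untreated animals at 1 day (10 animals with both regions), injured untreated animals at 1 week (survival 6 to 8 days, 15 animals) and sham or naive animals (survival 0 to 8 days, 18 animals). Strain and age are not given in the labels. Each code was taken to be 1 animal. Animals 1 and 3 share the part of the code before the hyphen, and its meaning was not given in the sources used here. If a code does not mark separate animals, the p-values measure a spread that may be technical.

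A miRNA is a short RNA that, loaded into an Argonaute protein, pairs with messenger RNAs through the bases near its 5′ end and lowers their translation or stability. Many miRNAs are made by particular cell types. miR-124 and miR-9 are abundant in neurons, miR-219 and miR-338 in oligodendrocytes, miR-126 in endothelium and miR-204 in the choroid plexus, so bulk levels also follow the mix of cells in a dissected piece. miRNAs that lie close together in the genome are often cut from a single transcript and are then called a cluster. Mature miRNA sequences were not used here.

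The deposited table gives whole-number counts per mature miRNA. Library totals ran from 7712061 to 11964550 counts (median 9790791) in the hippocampus and amygdala and from 5671999 to 10008390 (median 8669991) in the frontal lobe. The total was larger in the hippocampus and amygdala in 7 of 9 animals, with a ratio of geometric means of 1.18 that did not pass a 2-sided exact sign-flip permutation test (p = 0.0820, the smallest possible with 9 pairs being 0.00391). The let-7 family with miR-98 took 73.3% ± 3.66 of counts in the hippocampus and amygdala and 74.3% ± 2.39 in the frontal lobe (SD, n = 9 each), so every other miRNA was measured in the remainder. Levels are given as CPM, a count divided by the TMM-scaled library total and brought to a common size. Both regions carried the neural miRNAs at high level, with miR-124a at 8124 CPM on average in the hippocampus and amygdala and 7651 CPM in the frontal lobe, and miR-9-1, whose reads are those of miR-9, at 12779 CPM in the hippocampus and amygdala and 13799 CPM in the frontal lobe. No miRNA that defines the hippocampus or the amygdala was available to check the region labels. Across the 105 libraries totals ran from 98996 to 13194782 counts.

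Of 289 miRNAs tested, 157 (54.3%) differed between the regions at an adjusted p under 0.05 in edgeR's quasi-likelihood test with the animal as a block. In the hippocampus and amygdala, 88 (30.4%) were higher and 69 (23.9%) lower, or 86 and 68 when names that carry the same reads are counted once. Most differences were modest. The median size among the called was 0.68 on the log2 scale, and 29 of the higher and 11 of the lower reached 2-fold. The ranges of the regions did not overlap for 26 miRNAs (9.00%), of which 9 (3.11%) were higher and 17 (5.88%) lower in the hippocampus and amygdala. All 9 animals had the higher level in the hippocampus and amygdala for 49 miRNAs (17.0%) and the lower level there for 41 (14.2%). Fitted with all 4 groups scaled together, the CsA contrast gave 78 higher and 96 lower of 174 called, and the log2 differences moved by a median of -0.10. That fit also differs in its filter and its shared dispersion.

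**Figure D1:**
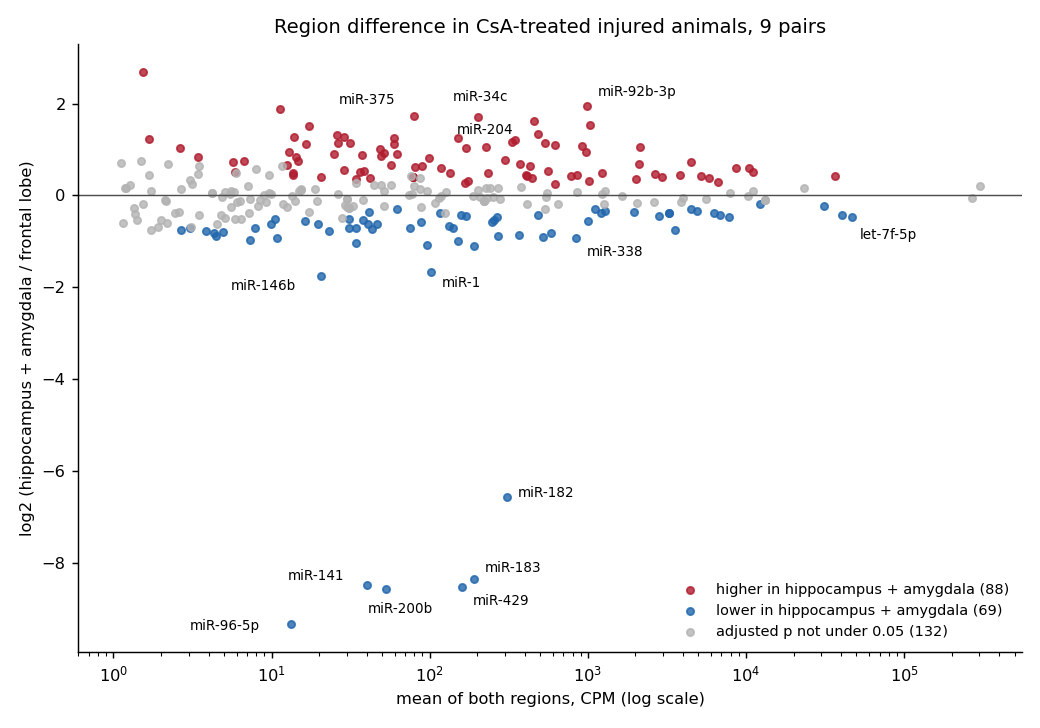
Log2 ratio of hippocampus and amygdala over frontal lobe (vertical axis) against the mean level of both regions in CPM (horizontal, log scale) for the 289 miRNAs tested in 9 CsA-treated animals; red and blue points passed the adjusted p of 0.05. The 88 higher and 69 lower miRNAs lie mostly within 2 log2 units of 0, and 6 miRNAs of the miR-183 and miR-200 groups lie below -6.

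The miR-183 cluster and the miR-200 family were nearly absent from the hippocampus and amygdala of the 9 paired animals and present in every frontal lobe library. The unpaired hippocampal library held more of all 6, with a sum of 79.6 CPM without TMM scaling, against 3.47 to 19.2 CPM in the 9 paired hippocampal libraries and 139 to 2876 CPM in the frontal ones. miR-183, miR-96 and miR-182 come from a single transcript known from sensory cells of the ear, eye and nose, and miR-200b, miR-429 and miR-141 are epithelial miRNAs that repress the transcription factors ZEB1 and ZEB2 and are also found in olfactory tissue. miR-183 ranged from 0.261 to 3.03 CPM (median 0.703) in the hippocampus and amygdala and from 42.4 to 773 CPM (median 520) in the frontal lobe. miR-182 ranged from 2.00 to 12.9 CPM (median 4.35) in the hippocampus and amygdala and from 56.4 to 1126 CPM (median 777) in the frontal lobe. The lowest frontal library stood above the highest paired hippocampal one for each of the 6 miRNAs, so the paired regions did not overlap. In bulk tissue fewer cells of a type and less of a miRNA per cell cannot be told apart.

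Because the hippocampal counts were close to 0, the differences are also given as pooled counts. Pooling drops the pairing by animal, and its intervals leave out the spread between animals. miR-183 had 81 counts over the 9 hippocampal libraries and 27146 over the 9 frontal ones, a frontal to hippocampal ratio of 392 per count sequenced (95% interval 315 to 494, counting error only). miR-96-5p had 2 counts, both in animal 3, against 1991 in the frontal lobe, a ratio of 1165 with a wide interval of 322 to 9624. Its 8 empty libraries allow up to 3 counts each, which is 0.251 CPM in the largest hippocampal library and 0.389 CPM in the smallest. miR-200b had 21 counts against 7821 (ratio 436, 285 to 704), and miR-141 had 16 against 5865 (ratio 429, 264 to 751). miR-429 had 69 counts against 23273 (ratio 395, 312 to 507), and miR-182 had 396 against 44294 (ratio 131, 118 to 145). In the fit across all miRNAs the log2 differences ran from -9.34 (SE 0.50, adjusted p = 4.47e-09) for miR-96-5p to -6.56 (SE 0.52, adjusted p = 7.10e-06) for miR-182, and all 6 were lower in 9 of 9 animals. miR-205, another epithelial miRNA, did not follow them, with 122 counts in the hippocampus and amygdala and 66 in the frontal lobe (log2 0.71, SE 0.39, adjusted p = 0.138).

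The frontal level of these 6 miRNAs varied widely between animals, and they varied together. Their sum in the frontal lobe was 2750, 1793, 2664, 2183 and 2895 CPM in animals 1, 2, 6, 7 and 9, and 146, 473, 216 and 594 CPM in animals 3, 4, 5 and 8. The sum in the hippocampus and amygdala was 23.3 CPM in animal 7 and between 3.39 and 9.63 CPM in the other 8. The 4 animals with low frontal sums all had codes beginning 12 or 13, whereas animals 2, 6, 7 and 9, with codes beginning 11, and animal 1 were high. The regions stayed apart in both sets of codes, and the part of the code in the level was not tested.

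**Figure D2:**
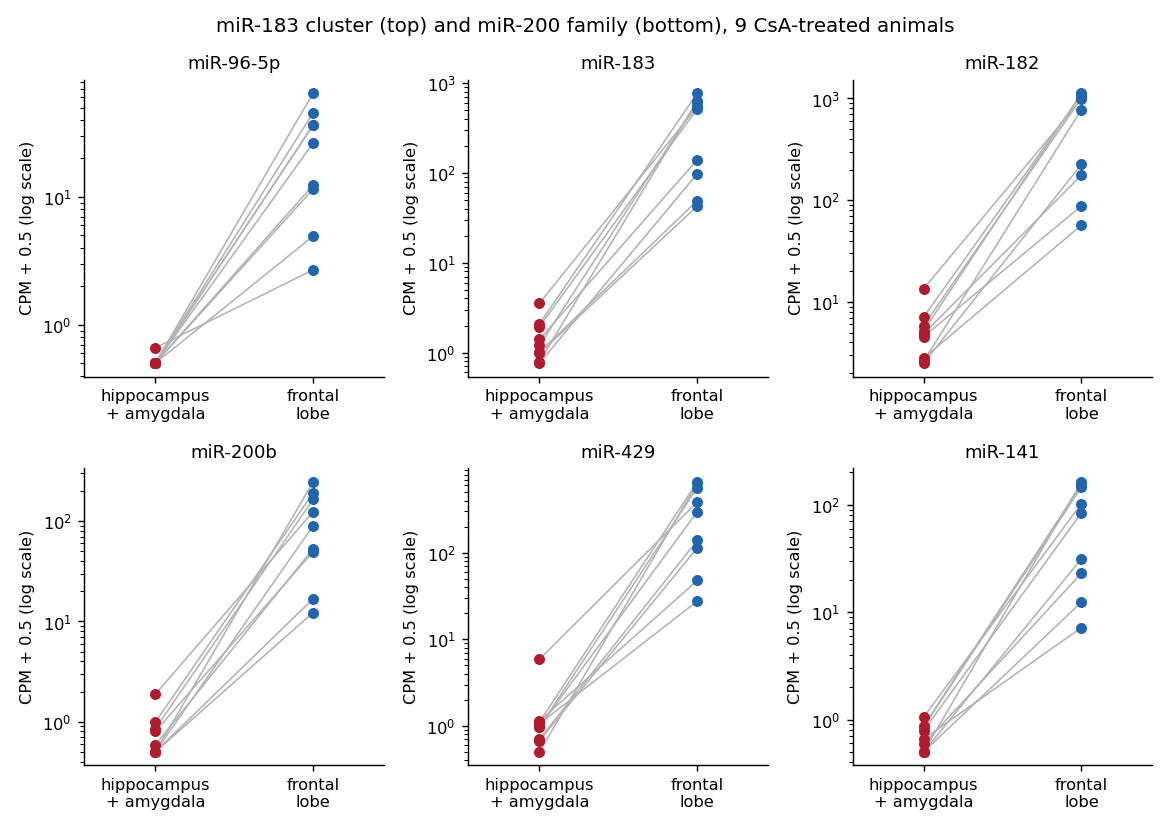
CPM plus 0.5 on a log scale for the miR-183 cluster (top row) and 3 miRNAs of the miR-200 family (bottom row) in the hippocampus and amygdala (left, red) and frontal lobe (right, blue); each line joins the libraries of 1 of 9 CsA-treated animals. Every frontal point lies above every hippocampal point, and frontal miR-183 spreads from 42.4 to 773 CPM.

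Several miRNAs had a higher level in the hippocampus and amygdala with ranges fully apart. miR-31, known for repressing genes of cell invasion, ranged from 344 to 634 CPM (median 486) in the hippocampus and amygdala and from 137 to 290 CPM (median 206) in the frontal lobe. miR-489, known in mouse for keeping muscle stem cells quiescent, ranged from 382 to 666 CPM (median 434) in the hippocampus and amygdala and from 180 to 252 CPM (median 198) in the frontal lobe. All hippocampal libraries were above all frontal ones for both. The log2 differences were 1.22 (SE 0.15, adjusted p = 3.58e-05) for miR-31 and 1.16 (SE 0.11, adjusted p = 7.10e-06) for miR-489. miR-184, known from neural stem cells of the mouse and from lens and cornea, ranged from 37.5 to 149 CPM (median 88.3) in the hippocampus and amygdala and from 17.5 to 55.7 CPM (median 31.7) in the frontal lobe. The ranges overlapped, but miR-184 was higher in 9 of 9 animals (log2 1.25, SE 0.17, adjusted p = 8.00e-05).

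The hairpins of miR-532, miR-500 and miR-362 lie close together on the chromosome, and all 5 mature miRNAs tested from them were higher in the hippocampus and amygdala. miR-532-3p ranged from 16.2 to 37.2 CPM (median 24.1) in the hippocampus and amygdala and from 5.83 to 13.0 CPM (median 8.69) in the frontal lobe, without overlap (log2 1.50, SE 0.19, adjusted p = 3.59e-05). Its partner arm miR-532-5p differed by 0.24 (SE 0.09, adjusted p = 0.0278), a call lost with RLE scaling (adjusted p = 0.0540), with let-7 left out of the scaling (0.0885) and without each of animals 1, 3, 4, 6, 7, 8 and 9 in turn. miR-500-5p, from the neighbouring hairpin, ranged from 46.3 to 91.5 CPM in the hippocampus and amygdala and from 26.4 to 40.8 CPM in the frontal lobe (log2 0.93, adjusted p = 0.000153). miR-935 also kept its regions apart, at 60.2 to 102 CPM in the hippocampus and amygdala and 27.9 to 48.4 CPM in the frontal lobe (log2 1.13, SE 0.14, adjusted p = 3.10e-05).

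miR-7-5p, a miRNA of neuroendocrine cells and neurons that represses alpha-synuclein, ranged from 7881 to 19993 CPM (median 11700) in the hippocampus and amygdala and from 7177 to 11698 CPM (median 9231) in the frontal lobe. The ranges overlapped over much of their length, and the level was higher in 8 of 9 animals (log2 0.51, SE 0.14, adjusted p = 0.00813). Its rare partner arm miR-7-3p went the other way, at 2.13 to 4.69 CPM in the hippocampus and amygdala and 3.28 to 7.57 CPM in the frontal lobe (log2 -0.82, SE 0.23, adjusted p = 0.00754). Both calls were lost among animals with codes beginning 12 or 13 alone (adjusted p = 0.144 for miR-7-5p and 0.120 for miR-7-3p, 5 animals, edgeR's quasi-likelihood test). Of the 8 arms of miR-7, miR-31, miR-184, miR-489, miR-105-1 and miR-532, a list taken from earlier region results of these data and so not independent of them, 7 were higher and 1 lower.

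The 2 tested miRNAs linked to choroid plexus and ciliated ependyma were higher in the hippocampus and amygdala. miR-204, made from an intron of TRPM3 and abundant in choroid plexus and retinal pigment epithelium, ranged from 160 to 622 CPM (median 265) in the hippocampus and amygdala and from 114 to 200 CPM (median 135) in the frontal lobe. Animal 6 had by far the highest hippocampal level and animal 9 the lowest, and the ranges overlapped because hippocampal animal 9 lay below frontal animals 1 and 4. miR-204 was higher in 9 of 9 animals (log2 1.06, SE 0.17, adjusted p = 0.000207). miR-34c, a p53-responsive miRNA abundant in multiciliated cells, ranged from 30.5 to 515 CPM (median 275) in the hippocampus and amygdala and from 32.4 to 154 CPM (median 92.0) in the frontal lobe. Hippocampal miR-34c of animal 3, at 30.5 CPM, lay below its own frontal level, while the other 8 animals had 211 CPM or more and were higher than their frontal lobe. The call (log2 1.71, SE 0.60, adjusted p = 0.0323) was lost when animal 1, 2, 4, 5 or 6 was left out (adjusted p from 0.0630 to 0.0979), without the low-count filter, in each set of codes and in the fit of all 4 groups (adjusted p = 0.0813).

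Several of the miRNAs with the largest increases had their lowest or highest hippocampal level in the same animals. miR-92b-3p, which shares its seed with miR-92a and is known from neural progenitors of the mouse cortex, ranged from 469 to 2613 CPM (median 1230) in the hippocampus and amygdala and from 175 to 699 CPM (median 356) in the frontal lobe. Animals 1, 5, 7 and 9 had from 2052 to 2613 CPM in the hippocampus and amygdala, and animal 8 had the least and overlapped the frontal range. It was higher in 9 of 9 animals (1569 ± 775 CPM in the hippocampus and amygdala, 397 ± 193 CPM in the frontal lobe; log2 1.94, SE 0.30, adjusted p = 0.000221). miR-92b-5p, the other arm, rose by a similar 1.89 (SE 0.34, adjusted p = 0.000495) at a low level of 18.2 ± 11.7 CPM in the hippocampus and amygdala and 4.49 ± 2.85 CPM in the frontal lobe.

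miR-139-3p, from a hairpin inside the PDE2A gene in human, ranged from 292 to 1062 CPM (median 634) in the hippocampus and amygdala and from 108 to 501 CPM (median 212) in the frontal lobe. miR-423-5p, known as a plasma marker of heart failure, ranged from 516 to 2469 CPM (median 1437) in the hippocampus and amygdala and from 261 to 1086 CPM (median 433) in the frontal lobe. Both were higher in 9 of 9 animals although the ranges overlapped. The log2 differences were 1.62 (SE 0.22, adjusted p = 6.64e-05) for miR-139-3p and 1.52 (SE 0.24, adjusted p = 0.000224) for miR-423-5p. miR-296-3p (1.34), miR-1343 (1.31), miR-193a-5p (1.27) and miR-9788-3p (1.27) also rose, each in 9 of 9 animals, with adjusted p from 0.000132 to 0.00148. For 10 of the 12 largest increases the lowest hippocampal level was in animal 8, and for 9 of the 12 the highest was in animal 5 or 7. These 12 were picked by size and include both arms of miR-92b. The share over all miRNAs tested was not computed, so the pattern need not be particular to them.

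miR-375, a miRNA of pancreatic islets, pituitary and other neuroendocrine cells, ranged from 17.1 to 343 CPM (median 111) in the hippocampus and amygdala and from 11.1 to 70.7 CPM (median 37.4) in the frontal lobe. Animal 5 had the highest hippocampal level. Animals 3 and 8 were lower in the hippocampus and amygdala than in the frontal lobe, and the other 7 were higher. The call (log2 1.73, SE 0.60, adjusted p = 0.0316) was lost when animal 1, 2, 4, 5 or 6 was left out (adjusted p from 0.0636 to 0.103), without the low-count filter and among codes beginning 12 or 13.

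**Figure D3:**
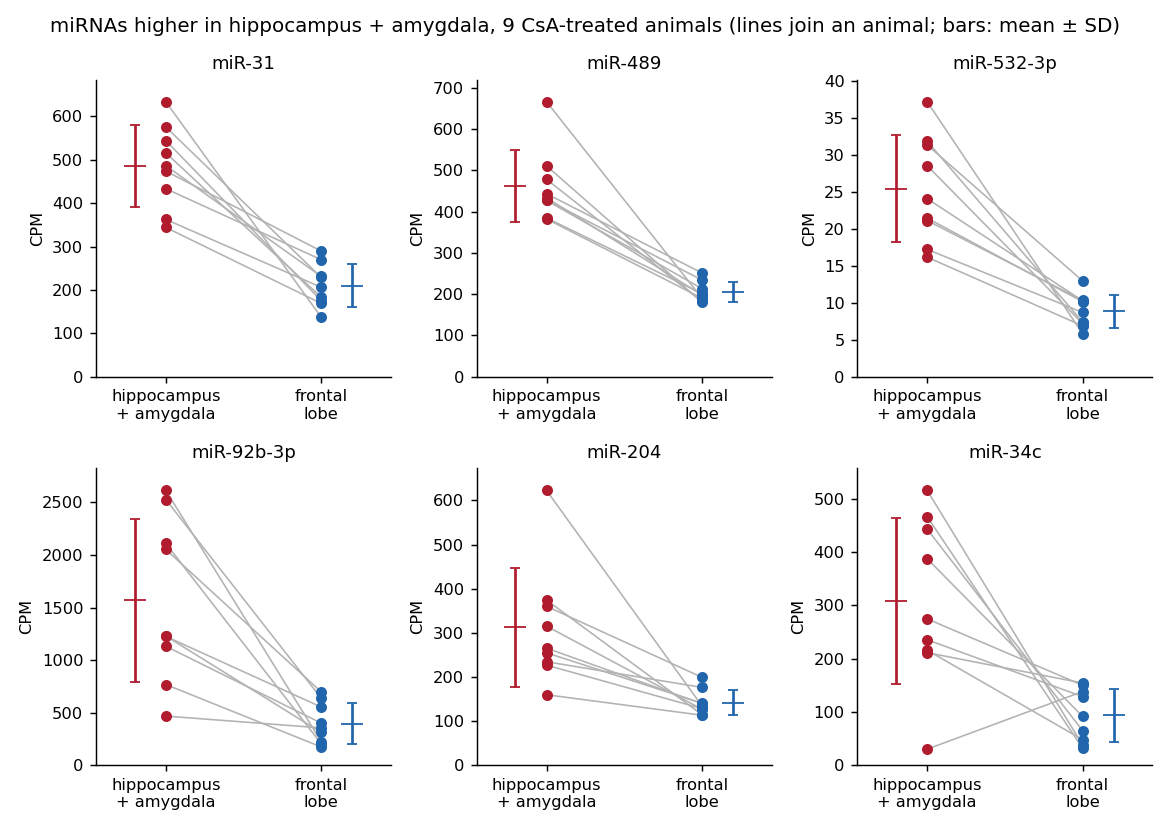
CPM of 6 miRNAs in the hippocampus and amygdala (left, red) and frontal lobe (right, blue) of 9 CsA-treated animals, with lines joining an animal and bars at the side giving mean ± SD. The regions do not overlap for miR-31, miR-489 and miR-532-3p, and the line of animal 3 runs against the others for miR-34c.

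The size of the region difference varied between animals over the whole set of calls. These miRNAs were called from the same 9 animals, which favours ratios in the called direction, so the signs below are no separate support. In animal 5 the median log2 ratio was 1.27 over the 86 miRNAs called higher and -0.91 over the 68 called lower, and in animal 1 the medians were 1.14 over those called higher and -1.09 over those called lower. Animal 8 had the smallest median among the miRNAs called higher, 0.24, with 68 of the 86 above 0, and its median among those called lower was -0.37, with 58 of the 68 below 0. It gave the smallest ratio of the 9 animals for 36 of the 86, and the share over all miRNAs tested was not computed. The 2 library totals of animal 8 were alike, at 9790791 counts in the hippocampus and amygdala and 9771178 in the frontal lobe, and those of animal 5 were 7712061 in the hippocampus and amygdala and 9573124 in the frontal lobe. Without animal 8 the test called 167 miRNAs, and without animal 5 it called 145.

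Lists of miRNAs linked to a cell type are given as counts of members, to be read beside the 30.4% of all miRNAs tested that were higher and the 23.9% that were lower. Some lists share members, such as miR-24-3p in the astrocyte and microglia lists, so the lists are not separate measurements. Of 3 oligodendrocyte miRNAs tested, 2 were lower in the hippocampus and amygdala. miR-338, which promotes oligodendrocyte differentiation, ranged from 355 to 816 CPM (median 566) in the hippocampus and amygdala and from 928 to 1360 CPM (median 1057) in the frontal lobe. miR-219b-3p ranged from 158 to 238 CPM (median 180) in the hippocampus and amygdala and from 291 to 436 CPM (median 348) in the frontal lobe. Neither overlapped between the regions. The log2 differences were -0.93 (SE 0.15, adjusted p = 0.000216) for miR-338 and -0.89 (SE 0.10, adjusted p = 1.13e-05) for miR-219b-3p. The third arm tested, miR-219a, was rare at 2.02 ± 0.406 CPM in the hippocampus and amygdala and 2.28 ± 0.826 CPM in the frontal lobe and was not called (log2 -0.13, adjusted p = 0.665). The list's summed level ran from 515 to 1056 CPM in the hippocampus and amygdala and from 1269 to 1670 CPM in the frontal lobe.

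Of 12 astrocyte-associated miRNAs tested, 8 (66.7%) fell and none rose, with a median log2 difference of -0.44 against 0.02 over all 289. The 6 of them from the miR-23, miR-24 and miR-27 clusters all fell (median -0.76). miR-27b-3p, which is also known from endothelium and lipid metabolism, ranged from 83.1 to 176 CPM (median 106.6) in the hippocampus and amygdala and from 147 to 510 CPM (median 227) in the frontal lobe. It was lower in 9 of 9 animals with some overlap of the ranges (log2 -1.10, SE 0.17, adjusted p = 0.000177). miR-23b from the same cluster fell by 0.87 (SE 0.09, adjusted p = 7.10e-06) and miR-23a from the other copy by 0.58 (SE 0.09, adjusted p = 0.000225). miR-29c fell by 0.56 (SE 0.13, adjusted p = 0.00302), a call lost among codes beginning 11 alone (adjusted p = 0.0519), whereas miR-26a (0.17, adjusted p = 0.149) and miR-29b (-0.02, adjusted p = 0.864) were not called.

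Among 9 miRNAs of microglia and inflammation, 3 fell, 1 rose and 5 were not called (median -0.33). miR-146b, induced by NF-κB and acting against TRAF6 and IRAK1, ranged from 3.03 to 18.3 CPM (median 11.4) in the hippocampus and amygdala and from 23.6 to 42.8 CPM (median 29.8) in the frontal lobe. The regions did not overlap (log2 -1.75, SE 0.22, adjusted p = 4.55e-05). miR-155-5p, a miRNA of activated myeloid and lymphoid cells, ranged from 181 to 262 CPM (median 223) in the hippocampus and amygdala and from 264 to 373 CPM (median 317) in the frontal lobe, again without overlap (log2 -0.46, SE 0.08, adjusted p = 0.000367). miR-24-3p fell by 0.33 (adjusted p = 0.00192) and miR-125a rose by 0.68 (adjusted p = 0.000231). miR-21-5p, which rises in reactive glia, had a log2 difference of -0.38 (SE 0.16, adjusted p = 0.0620), and the adjusted p was under 0.05 in 12 of 22 alternatives. miR-146a-5p averaged 1.46 CPM in the hippocampus and amygdala and 1.64 CPM in the frontal lobe and was not called (log2 -0.19, adjusted p = 0.668). Blood leukocyte miRNAs gave 1 higher and 1 lower of 7, with miR-223 of neutrophils at 0.21 (adjusted p = 0.290) and miR-142-3p at -0.25 (adjusted p = 0.258).

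Vascular lists were mixed. Of 9 endothelial miRNAs, 4 fell and 3 rose. miR-126-5p, from the endothelial gene EGFL7, ranged from 364 to 517 CPM (median 413) in the hippocampus and amygdala and from 465 to 1212 CPM (median 650) in the frontal lobe. It was lower in 9 of 9 animals, with animal 2 the highest in the hippocampus and amygdala (log2 -0.83, SE 0.17, adjusted p = 0.00124). The main arm miR-126-3p fell by 0.35 (SE 0.08, adjusted p = 0.00261), a call lost among codes beginning 11 alone (adjusted p = 0.0583). miR-221-3p, miR-221-5p and miR-222, which are neighbours, rose by 0.45, 0.39 and 0.55 (adjusted p from 0.00378 to 0.0179), and the call for miR-221-5p was lost without animal 6 or 7 (adjusted p = 0.0564 and 0.0872). Of 10 miRNAs of vascular smooth muscle and pericytes, 3 fell and none rose (median -0.22). miR-143-3p, which keeps smooth muscle contractile, ranged from 2051 to 3698 CPM in the hippocampus and amygdala and from 2643 to 7146 CPM in the frontal lobe (log2 -0.75, SE 0.16, adjusted p = 0.00191), while miR-145-5p of the same cluster was not called (-0.16, adjusted p = 0.143).

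Of 3 red cell miRNAs tested, 1 (33.3%) was higher and 2 were not called, close to the 30.4% higher over all miRNAs tested. miR-363 was 1 of those not called (log2 -0.15, adjusted p = 0.540). miR-486, found in red cells and in muscle, was higher in 9 of 9 animals, at 105 to 430 CPM in the hippocampus and amygdala and 55.2 to 204 CPM in the frontal lobe (log2 1.02, SE 0.19, adjusted p = 0.000497). miR-451, the most specific red cell miRNA, was rare and uneven, at 0.0971 to 10.8 CPM in the hippocampus and amygdala and 0.583 to 28.1 CPM in the frontal lobe (log2 -0.51, SE 0.48, adjusted p = 0.383). miR-144, from the same transcript as miR-451, did not pass the low-count filter. The part of blood content in other differences was not tested.

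Of 4 muscle miRNAs, 3 fell and 1 rose. miR-1, the main miRNA of heart and skeletal muscle, ranged from 31.5 to 76.9 CPM (median 47.5) in the hippocampus and amygdala and from 92.7 to 227 CPM (median 149) in the frontal lobe. The ranges did not overlap (log2 -1.67, SE 0.18, adjusted p = 1.18e-05). miR-133a-3p fell by 0.77 (SE 0.24, adjusted p = 0.0144) and miR-499-5p by 0.54 (SE 0.16, adjusted p = 0.0102), whereas miR-206 rose by 0.51 (SE 0.15, adjusted p = 0.0103). The call for miR-133a-3p was lost without the animal as a block (adjusted p = 0.0715), and that for miR-206 without animal 7 (adjusted p = 0.0516). Neuronal miRNAs went both ways. Of 11 neuron-enriched miRNAs 2 rose, 3 fell and 6 were not called, with a median of -0.01 on the log2 scale and single values from -0.50 to 0.90. miR-124a ranged from 5813 to 12294 CPM in the hippocampus and amygdala and from 5587 to 9043 CPM in the frontal lobe (log2 0.05, SE 0.13, adjusted p = 0.756), and miR-9-1 had a log2 difference of -0.10 (SE 0.10, adjusted p = 0.396). miR-128, abundant in mature neurons, ranged from 4826 to 6234 CPM (median 5505) in the hippocampus and amygdala and from 6305 to 8152 CPM (median 6852) in the frontal lobe, without overlap (log2 -0.37, SE 0.08, adjusted p = 0.00116). miR-132, made from a locus that neuronal activity turns on through CREB, ranged from 75.6 to 162 CPM (median 91.5) in the hippocampus and amygdala and from 139 to 195 CPM (median 174) in the frontal lobe. It was lower in 9 of 9 animals (log2 -0.71, SE 0.12, adjusted p = 0.000408), and its neighbour miR-212 had -0.24 (SE 0.17, adjusted p = 0.245). Of the 5 activity-responsive miRNAs tested, which include miR-184 and miR-183, 1 rose and 2 fell (median -0.24).

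**Figure D4:**
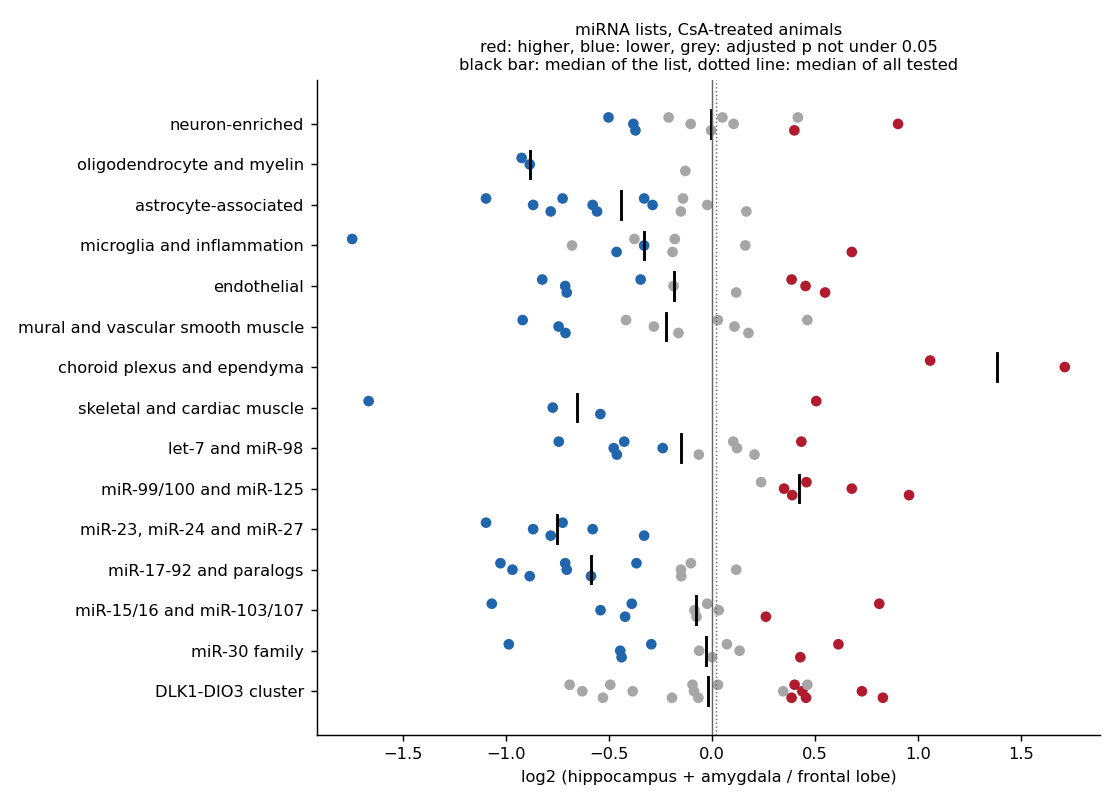
Log2 ratio of hippocampus and amygdala over frontal lobe for each tested member of 15 miRNA lists in 9 CsA-treated animals (red, higher; blue, lower; grey, adjusted p not under 0.05; black bar, median of the list; dotted line, median of all 289). All 6 miR-23, miR-24 and miR-27 members lie below 0 and all 6 of the miR-99/100 and miR-125 list above it, and the neuron-enriched members lie on both sides.

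Some families and clusters kept a single direction and others were split. The miR-99, miR-100 and miR-125 group, which shares transcripts with let-7 members, had 5 of 6 higher and none lower (median 0.42), or 4 of 6 with let-7 left out of the scaling. The call lost there was miR-100 (log2 0.35, adjusted p = 0.0316 in the main fit). It was also lost without each of animals 1, 3, 4, 5, 6 and 7 in turn, and in the fit of all 4 groups (adjusted p = 0.0576). miR-99b rose by 0.96 (SE 0.14, adjusted p = 0.000153), and its neighbours miR-125a and let-7e by 0.68 and 0.43. miR-99b ranged from 836 to 1696 CPM in the hippocampus and amygdala and from 502 to 877 CPM in the frontal lobe. The let-7 family itself was split, with let-7e higher and 5 of 10 members lower, among them let-7f-5p at 33542 to 49887 CPM (median 38567) in the hippocampus and amygdala and 49946 to 62897 CPM (median 53837) in the frontal lobe. Those ranges did not overlap (log2 -0.48, SE 0.07, adjusted p = 7.51e-05). miR-98, whose hairpin neighbours a let-7f copy, had a log2 difference of -0.46 (SE 0.07, adjusted p = 0.000177). Another of the 5 was the rare arm let-7i-3p (log2 -0.74, SE 0.29, adjusted p = 0.0440). Its call was lost without each of animals 1, 2, 3, 4, 5, 6 and 7 in turn, and without the animal as a block (adjusted p = 0.0579). let-7 members differ by few bases, and reads may have been split between them, which leaves each member's value uncertain.

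The growth-associated miR-17-92 cluster and its paralogs had 7 of 11 lower and none higher (median -0.59). miR-18a ranged from 17.6 to 26.8 CPM (median 21.8) in the hippocampus and amygdala and from 38.3 to 57.4 CPM (median 45.3) in the frontal lobe, with no overlap (log2 -1.03, SE 0.12, adjusted p = 1.75e-05). Of the 7 arms from the miR-17 to miR-92a-1 hairpins, 6 were called lower, and miR-92a had 0.12 (SE 0.16, adjusted p = 0.552). miR-15a, which with miR-16 represses BCL2, ranged from 43.4 to 80.4 CPM (median 59.3) in the hippocampus and amygdala and from 79.3 to 169 CPM (median 125) in the frontal lobe. It was lower in 9 of 9 animals with a slight overlap (log2 -1.07, SE 0.15, adjusted p = 8.47e-05), and miR-16 fell by 0.42 (SE 0.07, adjusted p = 0.000177). miR-30b-5p, of the miR-30 family, ranged from 71.7 to 165 CPM (median 94.2) in the hippocampus and amygdala and from 126 to 308 CPM (median 197) in the frontal lobe (log2 -0.99, SE 0.14, adjusted p = 8.05e-05). In the same family miR-30d rose by 0.43 (SE 0.15, adjusted p = 0.0228), a call lost with let-7 left out of the scaling (adjusted p = 0.0543) and without each of animals 1, 3, 4, 5, 6 and 7 in turn, and 2 of 10 members were higher and 4 lower.

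In the imprinted DLK1-DIO3 cluster, a large miRNA group expressed in brain, 6 of 18 were higher and none was lower (median -0.02). Under other scalings the higher count stayed at 6 while 2 to 4 became lower, so the cluster moved in no single direction. miR-432-5p ranged from 4104 to 6744 CPM (median 5645) in the hippocampus and amygdala and from 2740 to 4300 CPM (median 3225) in the frontal lobe (log2 0.73, SE 0.10, adjusted p = 6.64e-05). miR-127 rose by 0.40 (SE 0.08, adjusted p = 0.00124) and miR-370 by 0.83 (SE 0.17, adjusted p = 0.00124). miR-10a-5p and miR-10b, which are linked to HOX genes of the caudal nervous system, were low and not called (log2 0.45, adjusted p = 0.285, and 0.15, adjusted p = 0.576), although miR-10a-5p was called with the log10 library total as covariate (log2 1.01, adjusted p = 0.0303). The 2 miRNAs summed to at most 6.89 CPM in the hippocampus and amygdala and 6.21 CPM in the frontal lobe. In the miR-181 family 2 of 5 fell, miR-181a and miR-181b, and both calls were lost with the log10 library total as covariate (adjusted p = 0.0738 and 0.106), and that for miR-181a also without the animal as a block (adjusted p = 0.164). In the miR-15, miR-16 and miR-103 group 4 of 10 fell and 2 rose, miR-424-3p and miR-503. The call for miR-503 (log2 0.26, adjusted p = 0.0210) was lost with let-7 left out of the scaling (adjusted p = 0.060). It was also lost without animal 1, 3, 7 or 8, in each set of codes and in the fit of all 4 groups (adjusted p = 0.0693).

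The 2 arms of a hairpin usually moved alike. Among 59 arm pairs with both arms tested, 43 had the same sign, and among the 22 with both arms called, 18 went the same way. The 4 exceptions were miR-129a, miR-30c, miR-424 and miR-7. miR-424-3p ranged from 94.2 to 169 CPM in the hippocampus and amygdala and from 56.8 to 79.3 CPM in the frontal lobe (log2 0.81, SE 0.12, adjusted p = 0.000132), while miR-424-5p ranged from 146 to 304 CPM in the hippocampus and amygdala and from 161 to 467 CPM in the frontal lobe (log2 -0.54, SE 0.18, adjusted p = 0.0227), a call lost without animal 4, 5 or 6 (adjusted p from 0.0553 to 0.0572). miR-129a-3p had 0.90 (SE 0.25, adjusted p = 0.00753) and the abundant miR-129a-5p -0.38 (SE 0.09, adjusted p = 0.00257). The call for miR-129a-3p was lost among codes beginning 11 alone (log2 0.27, adjusted p = 0.435). Among codes beginning 12 or 13 alone, the calls for miR-129a-5p (adjusted p = 0.0790) and miR-30c-5p (adjusted p = 0.0606) were lost. Of 29 groups of hairpins lying within 10 kb of each other, 17 had every tested miRNA on the same side of 0. Several groups hold only 2 tested miRNAs, which can share a side by chance, and the share expected by chance was not computed. Some of these groups share a mature miRNA made by several hairpin copies, so they are not separate measurements.

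The region difference of the CsA animals was then set beside that of the other groups in a single fit of 52 animals and 307 miRNAs. This fit called 174 miRNAs (56.7%) in CsA, 143 (46.6%) at 1 day, 133 (43.3%) at 1 week and 149 (48.5%) in sham or naive animals, in groups that differ in size. Of the 134 miRNAs called in CsA with at least 10 CPM and outside the miR-200 and miR-183 groups, the difference had the same sign in 134 at 1 day, 129 at 1 week and 131 in sham or naive animals. These 134 were chosen on their CsA values, which favours larger values there. Their median size was 0.64 on the log2 scale in CsA, 0.47 at 1 day, 0.34 at 1 week and 0.37 in sham or naive animals. Over 210 miRNAs the Pearson correlation of the CsA difference was 0.93 with that at 1 day, 0.86 with 1 week and 0.87 with sham or naive animals. These correlations are across miRNAs, which are not independent, and no animal code occurs in more than 1 group. The codes of 2 of the 9 CsA animals share the part before the hyphen with a 1 day animal, and none does with a 1 week or sham or naive animal.

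No miRNA differed in its region difference between CsA and another group at an adjusted p under 0.05 in edgeR's quasi-likelihood test of the interaction. Against 1 day, 0 of 307 (0%) passed, 18 had an unadjusted p under 0.05 and the smallest adjusted p was 0.533, and DESeq2 also called 0. Against 1 week, 0 (0%) passed, with 78 at an unadjusted p under 0.05 and a smallest adjusted p of 0.0659, and DESeq2 called 35. Against sham or naive animals, 0 (0%) passed, with 75 at an unadjusted p under 0.05 and a smallest adjusted p of 0.0702, and DESeq2 called 27. The count depended on single CsA animals. Without animal 8 edgeR called 35 against 1 week and 33 against sham or naive animals, without animal 9 it called 17 and 17, and without animal 2 it called 13 and 16. Injury, drug and survival time differ together between the CsA and sham or naive animals. Drug and time differ together between the CsA and 1 week animals, and between the CsA animals (30 hours) and the 1 day animals. These cannot be told apart. All CsA and 1 day codes begin 11, 12 or 13, whereas the 1 week and sham or naive codes also have other beginnings. The part of the code in these comparisons was not tested.

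The miRNAs with the smallest p in these tests are given as values. miR-7134-3p had a region difference of 1.04 (SE 0.18) in CsA, 0.22 at 1 week and 0.22 in sham or naive animals, which is 0.82 larger in CsA in each case (SE 0.22, adjusted p = 0.0659 and 0.0702). Its median level was 597 CPM in the hippocampus and amygdala and 292 CPM in the frontal lobe of CsA animals, and 765 CPM and 629 CPM in those regions of sham or naive animals. miR-139-3p had 1.51 in CsA and 0.57 at 1 week (difference 0.95, SE 0.27, adjusted p = 0.0659). miR-374a-3p had -0.82 in CsA and -0.06 in sham or naive animals (difference -0.76, SE 0.22, adjusted p = 0.0702). miR-126-5p had -0.93 in CsA, -0.40 at 1 day and -0.33 in sham or naive animals (adjusted p of the interactions 0.533 and 0.0702). miR-1 had -1.77 in CsA, -1.01 at 1 day and -0.94 in sham or naive animals, with the same adjusted p-values. miR-98, let-7f-5p and miR-26b-5p were the other miRNAs with the smallest p against 1 day, with differences of -0.39, -0.32 and -0.30 (adjusted p = 0.533 each). miR-29c had -0.66 in CsA and -0.18 at 1 week (difference -0.49, SE 0.15, adjusted p = 0.0659).

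A few miRNAs had the smaller difference in CsA. miR-7-5p had 0.41 (SE 0.13) in CsA, 0.80 at 1 day, 0.82 at 1 week and 0.98 in sham or naive animals, and the difference from sham or naive animals was -0.57 (SE 0.16, adjusted p = 0.0702). miR-204 had 0.96 in CsA, 1.68 at 1 day, 1.55 at 1 week and 1.48 in sham or naive animals (adjusted p of the interactions from 0.445 to 0.734). miR-31 and miR-219b-3p were close to the same in every group, with miR-31 at 1.11 in CsA, 1.18 at 1 day, 0.98 at 1 week and 0.99 in sham or naive animals, and miR-219b-3p at -0.99 in CsA, -0.97 at 1 day, -1.01 at 1 week and -0.96 in sham or naive animals. The SEs for miR-31 and miR-219b-3p ran from 0.07 to 0.14.

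**Figure D5:**
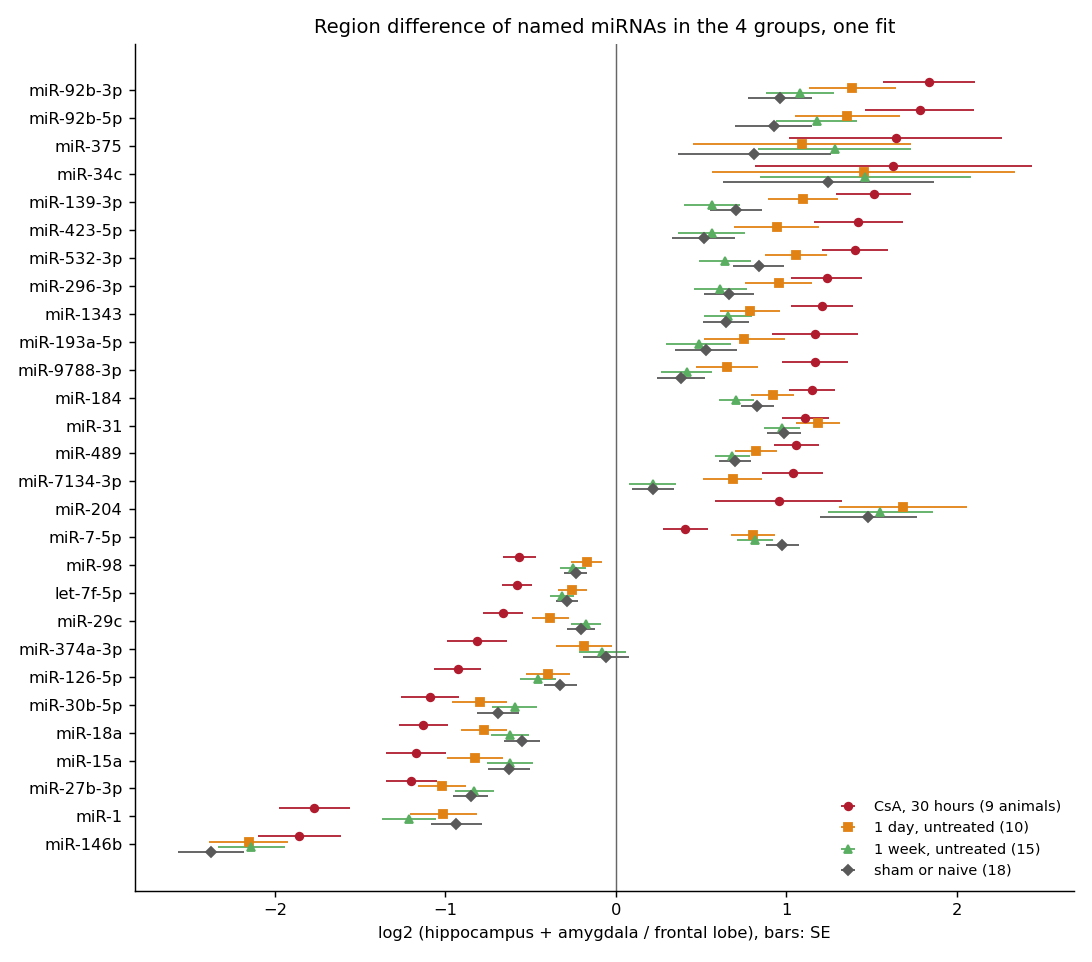
Log2 ratio of hippocampus and amygdala over frontal lobe with its SE for named miRNAs in CsA-treated (red), 1 day (orange), 1 week (green) and sham or naive animals (grey), from a single fit of 52 animals. The direction is shared by the 4 groups for every miRNA shown, CsA lies furthest from 0 for miR-92b-3p, miR-139-3p and miR-1, and it lies nearest to 0 for miR-7-5p and miR-204.

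In the same fit, 6 of these 6 miRNAs were called lower in the hippocampus and amygdala in CsA, 6 at 1 day, 4 at 1 week and 6 in sham or naive animals. miR-429 (adjusted p = 0.0762) and miR-182 (adjusted p = 0.0876) were not called at 1 week. The sum of the 6 miRNAs in the frontal lobe had a lowest, median and highest value of 142, 1684 and 2829 CPM in CsA, 4.41, 766 and 1966 CPM at 1 day, 2.26, 10.3 and 2182 CPM at 1 week, and 3.01, 136 and 2493 CPM in sham or naive animals. In CsA every frontal library had a sum of 142 CPM or more, whereas the lowest frontal library of each other group had 4.41 CPM or less. Every CsA library had 5671999 counts or more, and the smallest library of the series, with 98996 counts, belongs to another group. The part of depth in this contrast was not tested. In the hippocampus and amygdala of the paired animals the median and highest sums were 4.80 and 21.7 CPM in CsA, 5.48 and 54.1 CPM at 1 day, 7.29 and 18.2 CPM at 1 week, and 7.86 and 122 CPM in sham or naive animals. At 1 week the median sums of the regions were 7.29 CPM in the hippocampus and amygdala and 10.3 CPM in the frontal lobe. The interaction for miR-183 against 1 week was -5.70 (SE 1.62, adjusted p = 0.0659), and for miR-182 it was -4.78 (SE 1.34, adjusted p = 0.0659).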

How the data were processed

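Small RNA had been extracted from fixed tissue with a Mag-Bind kit and made into libraries with the QIAseq miRNA kit, per the labels' protocols. Trimmomatic 0.39 and cutadapt 1.9.1 were used, per the submitters' processing notes. The aligner, annotation, build and any molecular identifiers were not given in the sources used here, so counts need not be independent molecules, and intervals cover counting error only. The authors deposited whole-number counts, not normalized, for 542 entries, of which 89 were 0 throughout. One row was kept per mature name (highest total), which removed 85 entries and left 457 names. In 6 sets, different names held nearly the same reads, among them miR-9-1 with miR-9. RefSeq was used only to find neighbouring hairpins (314 of 408 matched).

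Counts were tested with edgeR 4.0.16 in R 4.3.3 (TMM, filterByExpr with minimum count 10 and minimum total 15, glmQLFit robust, glmQLFTest, 2-sided, Benjamini-Hochberg at 0.05 over all miRNAs tested) on region with the animal as block. A fit of all 4 groups gave the interactions. DESeq2 1.42.0 was an alternative. The design assumed that code and animal are the same. The deviations of an animal's 2 libraries from the region means correlated with a median of 0.228 (above 0.1 in 5 of 9 animals) against -0.0189 for libraries of different animals. The procedure was tested on simulated data with the design of the CsA region comparison. It called 83.3% of changes of log2 1, 36.7% of changes of log2 0.5 and 0% of unchanged miRNAs. A miRNA that was not called may therefore still differ by a modest amount.

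The members and lists were chosen with earlier results of these data known. miRNAs were named if called with at least 10 CPM in either region (12 largest increases and 12 largest decreases), by the 5 smallest p in each interaction, as a panel, or as list members. Those with non-overlapping regions or opposite arms were chosen after their values were seen.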

Additional observations from a re-analysis of the deposited data

Results flagged for a closer look

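Among 112 groups of 9 libraries, for named miRNAs in each region, 14 (12.5%) had a highest library set apart from the other 8 beyond Dixon's 95% limit of 0.493. Chance flags about 1 in 20 groups of normally distributed values. The check used untransformed CPM, which is bounded at 0, so the 12.5% cannot be judged against that share. In addition, miRNAs of a cluster are not independent. Animal 7 held 5 of these in the hippocampus and amygdala, with 76.9 CPM of miR-1, 12.9 of miR-182, 3.03 of miR-183, 1.38 of miR-200b and 5.37 of miR-429. Animal 3 held the 0.159 CPM (2 counts) of miR-96-5p there. Animal 5 held 343 CPM of miR-375 and 666 CPM of miR-489 in the hippocampus and amygdala, and 4.34 CPM of miR-146a-5p in the frontal lobe. Other hippocampal values set apart were 517 CPM of miR-126-5p in animal 2, 622 CPM of miR-204 in animal 6 and 19433 CPM of miR-9-1 in animal 8. In the frontal lobe they were 11.2 CPM of miR-92b-5p in animal 9 and 13.8 CPM of miR-9788-3p in animal 2.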

How the results depend on the processing

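The count of 157 region calls in CsA stayed within 1.5 times under every alternative run, from 105 (codes beginning 11) and 109 (codes beginning 12 or 13) to 184 (entries without merging), and from 143 to 167 when 1 animal was left out. Without the animal as a block (unpaired) it was 156, of which 149 were shared with the paired test. Merging different names with the same reads, an alternative chosen after seeing the data, gave 155. With let-7 left out of the scaling 80 were higher and 80 lower. Interaction counts of 0 moved to 35 (DESeq2) and 33 (log10 total as covariate) against 1 week, and to 27 and 20 against sham or naive animals; the cause was not tested. Leaving out 1 animal gave 0 to 35 against 1 week, 0 to 33 against sham or naive animals, and 0 to 0 against 1 day. The log10 ratio of totals (0.0710) ran from 0.0528 to 0.0916, and without animal 5 it passed the threshold at 0.0916 (exact permutation p = 0.0234). Of 56 named miRNAs 42 were called, 34 of them under every alternative, and no call reversed; the other 8 are miR-34c, miR-375, miR-7-5p, miR-7-3p, miR-126-3p, miR-145-3p, miR-29c and miR-374a-3p. Of the 14 not called, 7 were called under at least 1 alternative. Of the 86 miRNAs of the gene lists called in the paired fit, 40 lost the call in at least 1 alternative, 26 of them only within a set of animal codes, each of which holds fewer animals.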

Other observations

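The CsA animal with hippocampus and amygdala only entered no paired comparison. Among the tests, its library was used only in an alternative on all 19 CsA libraries without the animal as a block. That alternative called 156 miRNAs. The unpaired library had 7441683 counts. Given as CPM without TMM scaling, 17 of the 24 miRNAs with the largest increases and decreases lay within the range of the other 9 hippocampal libraries. The 7 outside were miR-15a (90.2) and the 6 miRNAs of the miR-183 and miR-200 groups. miR-183 stood at 24.6 CPM there, against 0.251 to 2.51 in the 9 paired hippocampal libraries and 40.2 to 767 in the frontal ones. miR-429 stood at 13.6 CPM (101 counts), against 0 to 4.44 in the paired hippocampal libraries and 25.7 to 653 in the frontal ones. miR-204 was also high, at 1020 CPM against 140 to 663 in the paired hippocampal libraries and 111 to 214 in the frontal ones. miR-489 and miR-31 lay within the hippocampal range.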
